A study of Mus musculus with 12 samples.

Results

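Trailers of the nuclear methionine tRNA genes, the short stretches cut from the 3′ end of a pre-tRNA, were taken from the series table of tRNA reads. They comprised every distinct sequence of the subtype tRF-1 (a fragment starting at the first base behind the mature tRNA) whose listed precursors were all pre_tRNA-iMet-CAT or all pre_tRNA-Met-CAT genes. There were 182 such sequences with 25755 reads, of 2188 tRF-1 sequences with 59391 reads and 87699 sequences with 1705883 reads in all. They came from 5 of the 17 methionine precursors listed. A single tRF-1 sequence with 1 read, shared with an Arg-CCT gene, was left out by this rule.

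The study sequenced tRNA fragments of 14 to 40 nt from livers of male B6D2F1/Crl mice aged 8 to 12 weeks. Wild type (WT) mice and mice with a CRISPR/Cas9 deletion in exon 2 of NSun2 (NS-KO), bred by mating heterozygotes, were compared. NSun2 methylates cytosines of tRNAs. The question was how the fragments differ with the genotype and with liver injury by carbon tetrachloride (CCl4). WT D0 and NS-KO D0 livers had no CCl4 injury. WT D3 and NS-KO D3 livers were taken at day 3, after 1 injection of 40% CCl4 in corn oil at 2 mL per kg body mass at 9 to 12 weeks of age. WT D27 and NS-KO D27 livers were taken at day 27, after repeated injections. The age of 8 to 12 weeks is given for all groups alike, and whether it holds for collection at day 27 is not stated. Each of the 6 groups had 2 libraries, 12 in all, described as biological replicates. Whole livers were used, so a change in the mixture of cells and a change within cells cannot be told apart. The files hold tRNA reads only, and neither NSun2 mRNA nor markers of liver cell types could be examined.

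Libraries held 46937 to 275568 reads, and 1 read was worth 3.63 to 21.3 CPM (counts per 1000000 tRNA reads). Fragments of the subtype tRF-5c took 35.6% to 71.5% of the reads in the 6 WT libraries and 12.5% to 30.4% in the 6 NS-KO libraries, without overlap. CPM of every other fragment moves with that share, and its part in the differences in CPM between genotypes was not tested. Levels were therefore compared on 3 scalings. Values without a remark used TMM factors (trimmed mean of M-values), which ran from 0.509 to 1.85.

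RNA polymerase III makes tRNA precursors and stops at a run of T in the gene, so that a precursor ends in a run of U. RNase Z (ELAC2 in mammals) cuts behind the mature 3′ end and frees the trailer, which is the tRF-1. The genome holds 2 kinds of methionine tRNA gene: the initiator tRNA (iMet-CAT) starts protein synthesis and the elongator tRNA (Met-CAT) adds methionine within the chain. Mature sequences are shared by several genes, whereas trailers mostly differ from gene to gene. A trailer read listed under a single gene was taken to come from that gene.

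The trailers of the 5 genes with reads are printed because the reads of each were listed under that gene alone. They differ in sequence before the T run. They are shown to the end of the first run of 4 or more T, in DNA letters from 5′ to 3′ with that run in capitals. The trailer of iMet-CAT-1-5, the longest to the end of such a run among the methionine genes and without reads, is added for comparison.
iMet-CAT-1-1: tcggaggctttgTTTTT
iMet-CAT-1-7: tctggacTTTTTTTTTT
iMet-CAT-1-2: aggtgcagcTTTTTTTTTT
Met-CAT-1-1: tcctgcattgTTTT
Met-CAT-2-2: acctcagcTTTT
iMet-CAT-1-5: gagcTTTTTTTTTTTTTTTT

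Nearly all reads came from 1 gene. iMet-CAT-1-1 gave 150 of the sequences and 25643 reads, which was 99.6% of the methionine trailer reads. iMet-CAT-1-7 gave 16 sequences with 67 reads, iMet-CAT-1-2 gave 7 with 22, Met-CAT-1-1 gave 5 with 15 and Met-CAT-2-2 gave 4 with 8. Initiator genes thus held 25732 reads and elongator genes 23. The other 12 methionine precursors, 7 of the 10 iMet-CAT and 5 of the 7 Met-CAT genes, had no tRF-1 reads.

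iMet-CAT-1-1 lies at chr3:90475860-90475931 in the coordinates of the files, which equal those of the RefSeq tRNA gene n-TMcat11 on GRCm38.p6. Its printed sequence matched the minus strand there: over the 21 bases it shares with the RefSeq window of the Ilf2 promoter, 21 equalled the reverse complement and 6 the forward strand. The trailer of 17 bases is at chr3:90475843-90475859, in no other annotated gene. Ilf2, which codes for a double-stranded RNA binding protein, starts 270 bp away, and Npr1, a natriuretic peptide receptor, is 9932 bp away on the other side. iMet-CAT-1-7 (n-TMcat9, chr13:23530348-23530419) lies within the annotated gene Gm11335 and Met-CAT-2-2 (n-TMcat15, chr13:21169687-21169759) within Gm32298. iMet-CAT-1-2 (n-TMcat7, chr13:21710994-21711065) and Met-CAT-1-1 (n-TMcat17, chr8:121579229-121579301) lie in no other gene. Of the 17 methionine precursors 11 are on chromosome 13, and 16 had a RefSeq tRNA gene with the same ends, against 370 of all 439 nuclear precursors.

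Trailer length differed between genes with and without reads. The first T run ended 14 nt or more behind the mature tRNA in 5 methionine genes, of which 4 had trailer reads. It ended sooner in 10 genes, of which only Met-CAT-2-2 had tRF-1 reads, and 2 genes had no run of 4 T within the 40 nt listed. Reads under 14 nt were not kept, so a trailer that ends sooner could not be seen at its full length. Reads behind the 3′ end in the class Other, outside the rule, were found in 6 of the short-trailer genes without tRF-1 reads, at 1 to 10 reads each, with the 10 in iMet-CAT-4-1. Met-CAT-5-1, without a T run, had 3. Over all 439 nuclear precursors, 365 (83.1%) held such a run, the median length to its end was 13 nt, and 178 (40.5%) reached 14 nt.

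**Figure D1:**
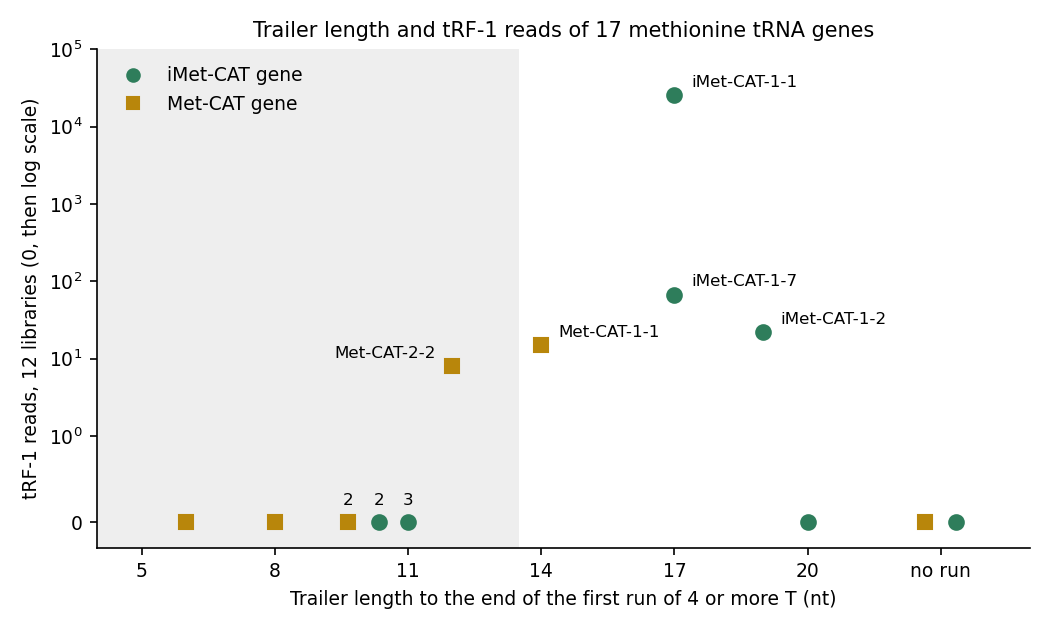
Trailer length to the end of the first run of 4 or more T (x axis, nt) against the tRF-1 reads of all 12 libraries (y axis, 0 and then a log scale) for the 17 methionine tRNA genes; circles are iMet-CAT and squares Met-CAT genes, shifted sideways where they coincide, small numbers give genes at 1 point, and grey marks lengths under the 14 nt kept. iMet-CAT-1-1 stands at 25643 reads, and the other 4 genes with reads at 8 to 67.

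All 182 sequences began at base 1 of the trailer and were 14 to 25 nt long. Those of Met-CAT-2-2 ran past the first T run to a second one, at 17 to 19 nt. In iMet-CAT-1-1, 11934 reads were 15 nt long, 12339 were 16 nt and 1307 were 17 nt, against 17 of 14 nt, 32 of 18 nt and 14 of 23 to 25 nt. The 3 main lengths thus ended within the run of 5 T, with 3, 4 or 5 of its bases kept. Outside the rule, the same precursor had 67 sequences with 1308 reads behind its 3′ end in the class Other. Of these reads, 856 were 14 nt long from base 1 and 431 began at base 2.

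Of the members, 16 with 18496 reads matched a gene exactly and 166 had 1 mismatch, the most the alignment allowed. The 10 most-read members all came from iMet-CAT-1-1 and are printed because they carry most of the reads. Capitals mark the part of the T run in the 3 exact fragments and the differing base in the others, given as the gene's base, the position from the fragment's 5′ end and the read's base.
Exact, 16 nt, 8887 reads: tcggaggctttgTTTT
Exact, 15 nt, 8642 reads: tcggaggctttgTTT
T15C, 15 nt, 1363 reads: tcggaggctttgttC
T16C, 16 nt, 1304 reads: tcggaggctttgtttC
Exact, 17 nt, 871 reads: tcggaggctttgTTTTT
T16A, 16 nt, 803 reads: tcggaggctttgtttA
T15A, 15 nt, 670 reads: tcggaggctttgttA
T15G, 16 nt, 259 reads: tcggaggctttgttGt
T14G, 15 nt, 251 reads: tcggaggctttgtGt
T15G, 15 nt, 183 reads: tcggaggctttgttG

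The most-read fragments of the other genes with at least 10 reads were exact: tctggacTTTTTTT with 35 reads (iMet-CAT-1-7), aggtgcagcTTTTT with 8 (iMet-CAT-1-2) and tcctgcattgTTTT with 11 (Met-CAT-1-1). The study synthesised a set of fragments chosen on these samples, and 5 of its names were 4 distinct members. None was among the 10 most read. tRF-Met-CAT-028 (18 nt, iMet-CAT-1-1) had 12 reads, tRF-Met-CAT-030 (14 nt, iMet-CAT-1-7) 35, tRF-Met-CAT-031 (15 nt, iMet-CAT-1-7) 10, and tRF-Met-CAT-036, also listed as tRF-Leu-AAG-036 (17 nt, Met-CAT-2-2), 5.

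Reads of the iMet-CAT-1-1 trailer varied less between libraries than the library totals did. They were 2231 and 1686 in WT D0, 2729 and 2330 in WT D3, and 2134 and 1680 in WT D27. NS-KO D0 held 3370 and 2930 reads, NS-KO D3 2278 and 1955, and NS-KO D27 864 and 1456. These were the highest reads of all groups for NS-KO D0 and the lowest for NS-KO D27. The highest library was 3.90 times the lowest, against 5.87 times for all reads and 10.2 times for the trailer's CPM.

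In CPM the trailer was highest in NS-KO D0. It was at 8377 and 10441 CPM in WT D0, 33478.5 and 12049 in WT D3, and 13627 and 6096.5 in WT D27. NS-KO D0 was at 47587 and 62424 CPM, NS-KO D3 at 10287 and 15354, and NS-KO D27 at 18393.5 and 25316. Both NS-KO D0 libraries exceeded all others. The genotypes were also apart at D27, where NS-KO was higher, and overlapped at D3. NS-KO D27 also lay above NS-KO D3 and WT D0, and WT D3 above WT D0, without overlap. In order of mean CPM (± SD, n = 2), WT D0 was at 9409 ± 1459, WT D27 at 9862 ± 5325, NS-KO D3 at 12821 ± 3583, NS-KO D27 at 21855 ± 4895, WT D3 at 22764 ± 15153 and NS-KO D0 at 55005 ± 10492. Neighbours in this order from WT D0 to NS-KO D3, and NS-KO D27 and WT D3, differed by less than their SD.

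**Figure D2:**
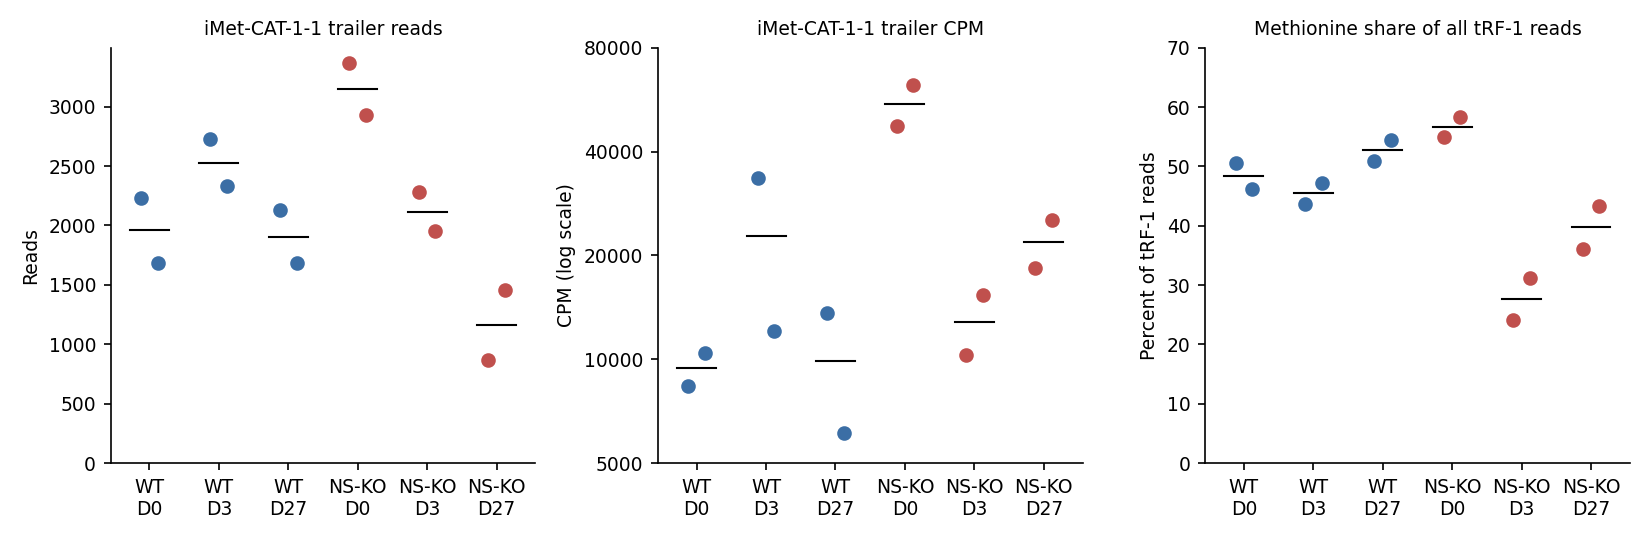
Reads of the iMet-CAT-1-1 trailer (left), its CPM on a log axis (middle) and the percent of all tRF-1 reads that were methionine trailers (right) in the 6 groups; each point is a library, lines are means, and WT is blue and NS-KO red. NS-KO D0 stands highest in all 3 panels, and NS-KO D3 is lowest in the right panel (24.2% and 31.2%).

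The iMet-CAT trailer sum, all tRF-1 reads of initiator genes, did not pass the test between genotypes. limma was fitted to log2 CPM of 282 sums by subtype and isodecoder over all 12 libraries. Isodecoder here means the tRNAs of 1 anticodon, with iMet-CAT and Met-CAT kept apart. NS-KO minus WT was 0.16 ± 0.20 (log2, SE) over the 3 days with an adjusted p of 0.54, where 39.4% of the 282 sums were called at an adjusted p under 0.05. At D0 it was 1.14 ± 0.35 (adjusted p = 0.062, 9.57% of sums called). At D3 the difference was −0.45 ± 0.35 (adjusted p = 0.42, 26.6% called) and at D27 −0.21 ± 0.35 (adjusted p = 0.75, 8.16% called).

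The comparison of genotypes depended on the scaling. For library size alone limma used a spread pooled over all 282 sums (1692 degrees of freedom). Its p-values on that scaling do not measure the spread of this sum itself. With library size alone the sum was called higher in NS-KO over days by 1.04 (adjusted p = 0.0011), at D0 by 2.54 (adjusted p = 2.5e-05) and at D27 by 1.24 (adjusted p = 0.033), while the median of all 282 sums over days moved from 0.12 to 0.84. With the reads outside tRF-5c as library size the difference over days was −0.042, the sum was called lower at D3 by a log2 difference of −1.27 (adjusted p = 0.018), and the median of all sums over days was −0.053. Less the median of all sums, the difference over days was 0.039, 0.20 and 0.011 on the 3 scalings, in the order TMM, library size alone and reads outside tRF-5c. Taken the same way, D0 gave 1.11, 1.27 and 1.11, D3 gave −0.53, −0.55 and −0.63, and D27 gave −0.21, −0.00012 and −0.15.

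Within NS-KO the initiator sum was lower at D3 than at D0. From NS-KO D0 to NS-KO D3 it fell by 1.23 ± 0.35 (log2, SE; limma adjusted p = 0.026), where 20.9% of sums were called. It was also called lower with library size alone (−2.11, adjusted p = 4.6e-04) and with reads outside tRF-5c (−1.92, adjusted p = 0.0024), where the medians of all sums were −0.58 and −0.39, against 0.23 with TMM. Less these medians the differences were −1.46, −1.52 and −1.53. With TMM the adjusted p was 0.057 without the filter on low sums and 0.061 to 0.097 without either NS-KO D0 library, and 0.056 to 0.11 without either NS-KO D3 library. From NS-KO D0 to NS-KO D27 the difference was −1.46 ± 0.35 (adjusted p = 0.11, 0.355% of sums called).

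In WT the differences from D0 were 0.36 ± 0.35 at D3 (adjusted p = 0.84) and −0.11 ± 0.35 at D27 (adjusted p = 0.92). limma called 0% of the 282 sums in both comparisons, voom weights called 0 as well, and 23 and 31 sums had an unadjusted p under 0.05. The change from D0 to D3 was lower in NS-KO than in WT by a log2 difference of −1.59 ± 0.50, which missed the threshold (adjusted p = 0.055, 13.1% of sums called). This difference was called with library size alone (−3.21, adjusted p = 6.1e-04), with reads outside tRF-5c (−2.38, adjusted p = 0.010), with exact matches only (−1.64, adjusted p = 0.029) and without WT D3 replicate 2 (−1.92, adjusted p = 0.043), WT D27 replicate 1 (−1.77, adjusted p = 0.044) or WT D27 replicate 2 (−1.77, adjusted p = 0.043). Less the medians of all sums it was −1.75, −1.87 and −1.83 on the 3 scalings. For D27 it was −1.35 ± 0.50 (adjusted p = 0.56), with 0% of sums called, 0 by voom weights and 23 at an unadjusted p under 0.05.

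**Figure D3:**
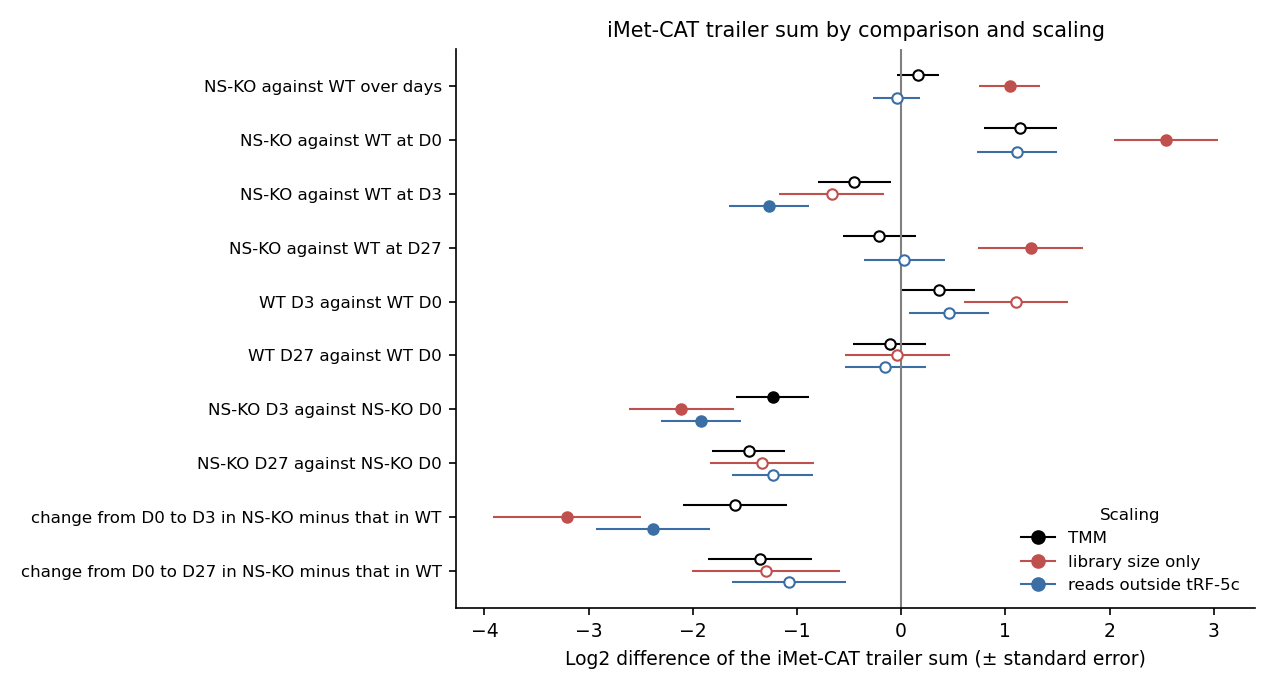
Log2 difference of the iMet-CAT trailer sum (x axis, ± SE) for 10 comparisons under TMM factors (black), library size only (red) and reads outside tRF-5c (blue); filled points have a limma adjusted p under 0.05. Only NS-KO D3 against NS-KO D0 was called on all 3 scalings, at −1.23, −2.11 and −1.92.

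The elongator trailers had few reads in every library. Met-CAT-1-1 had 0 and 1 reads in WT D0, 4 and 0 in WT D3, 0 and 1 in WT D27, 1 and 1 in NS-KO D0, 2 and 3 in NS-KO D3, and 0 and 2 in NS-KO D27. Met-CAT-2-2 had 2 and 1 reads in WT D3, 3 in NS-KO D0 replicate 1, 2 in NS-KO D3 replicate 1 and none elsewhere. A count of 0 allows a level of up to 3 reads, which was 10.9 to 63.9 CPM depending on the library, and these limits cover counting error only. The Met-CAT sum of 23 reads did not reach the filter of 10 reads per median library in 2 libraries. Without the filter it was at 0.43 ± 0.35 over days (limma adjusted p = 0.57), 0.97 ± 0.61 at D0 (adjusted p = 0.53), −0.0040 at D3 and 0.33 at D27 (adjusted p = 1 for both).

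Single genes were tested on 625 sums by subtype and listed genes, of which limma called 31.5% over days, 6.72% at D0, 18.2% at D3 and 7.52% at D27. iMet-CAT-1-1 followed the initiator sum it makes up, with 0.16 ± 0.21 over days (adjusted p = 0.60), and was not called at any day with TMM factors. With library size alone it was called higher over days (1.04, adjusted p = 0.0025), at D0 (2.54, adjusted p = 6.9e-05) and at D27 (1.24, adjusted p = 0.046), and with reads outside tRF-5c lower at D3 (−1.28, adjusted p = 0.031). iMet-CAT-1-7 had 2, 2, 5, 4, 3 and 2 reads in the WT libraries and 9, 5, 19, 12, 4 and 0 in the NS-KO libraries, in the order D0, D3 and D27. Its reads were higher in NS-KO at D0 and D3 without overlap and overlapped at D27. NS-KO minus WT was 0.84 ± 0.33 over days (adjusted p = 0.070), 1.46 ± 0.57 at D0 (adjusted p = 0.13), 1.202 ± 0.569 at D3 (adjusted p = 0.18) and −0.13 ± 0.57 at D27 (adjusted p = 0.91). With library size alone it was called over days (1.32, adjusted p = 0.0041) and at D0 (2.45, adjusted p = 0.0048). Without NS-KO D27 replicate 2 the difference over days was 1.17. This gene passed the filter on sums through NS-KO libraries alone, as its WT libraries stayed under it, at 61.3 CPM or less. Its values are therefore a description and no support for a difference. iMet-CAT-1-2, at 0 to 3 reads per library, and both Met-CAT genes fell under the filter.

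As single fragments, 122 of the 182 members reached 20 CPM in at least 1 library and entered a fit of 22065 fragments. The 60 others held 0.431% of the member reads, and 40 members had 1 read. Of the 122, 112 came from iMet-CAT-1-1 and are variants of a single trailer. A level of 20 CPM took 0.939 reads in NS-KO D0 replicate 2 and 5.33 in WT D0 replicate 1. Sparse members could thus enter through NS-KO reads alone. Counts of members higher in NS-KO are therefore a description and no support for a difference. Over days 1 member was called, where limma called 6.04% of all fragments; 12 members were higher and 2 lower at an unadjusted p under 0.05, against 4662 of the 22065 fragments in either direction. Voom weights called 10 members, all higher, and 4482 fragments. At D3 the same member was called, against 10.9% of all fragments. At D0 limma called 0 members (0.394% of fragments), with 34 members higher and 0 lower at an unadjusted p under 0.05, against 1801 of all fragments, and 9 called by voom, against 536. At D27 it called 0 members (0.331% of fragments), with 4 higher and 6 lower unadjusted, against 2093 of all fragments, and 1 called by voom, against 798.

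None of the 10 most-read members passed the test between genotypes over days or at 1 day with TMM factors. The exact 16 nt fragment had 723 and 556 reads in WT D0, 878 and 814 in WT D3, 727 and 550 in WT D27, 1213 and 1165 in NS-KO D0, 751 and 670 in NS-KO D3, and 304 and 536 in NS-KO D27. Its difference over days was 0.26 ± 0.17 (log2, SE; limma adjusted p = 0.45). That of the exact 15 nt fragment was −0.08 ± 0.20 (adjusted p = 0.81) and that of the exact 17 nt fragment 0.74 ± 0.27 (adjusted p = 0.13). The order of these values followed length, and the composition by length is given below.

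The member called was an 18 nt fragment of iMet-CAT-1-1 that carries a sixth T where the gene has A, A18T: tcggaggctttgtttttT. It had 0 reads in all 6 WT libraries, and 3 and 3 reads in NS-KO D0, 6 and 2 in NS-KO D3, and 1 and 1 in NS-KO D27. Taken over each genotype, 16 reads were 28.0 CPM in NS-KO, 10.6 times the 2.64 CPM that 0 reads allow in WT. This ratio leaves out the counting error of the 16 reads and the spread between libraries, so it is no lower bound. The fragment entered the fit only through NS-KO libraries, where 1 read was already up to 21.3 CPM. It therefore had to differ once it entered, and its call is given as a count with no p.

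Methionine trailer reads of the subtype tRF-1 were longer in NS-KO. The 856 reads of iMet-CAT-1-1 that were 14 nt long from base 1, in the class Other, are outside this mean. Their number in each genotype was not examined. The mean length of the tRF-1 reads was 15.53 and 15.54 nt in WT D0, 15.53 and 15.57 in WT D3, and 15.52 and 15.56 in WT D27. NS-KO D0 reads averaged 15.62 and 15.63 nt, NS-KO D3 reads 15.63 and 15.63, and NS-KO D27 reads 15.71 and 15.65. Every NS-KO library lay above every WT library. The difference was 0.103 nt (WT 15.54 ± 0.02, NS-KO 15.64 ± 0.04, SD, n = 6; exact two-sided permutation of genotype within days, p = 0.00926, the smallest its 216 arrangements allow, 0.0278 adjusted over 3 measures). It was 0.0817 nt with exact matches only and 0.0919 to 0.114 nt without each library in turn, with the same adjusted p. Without a library the test could not miss the threshold, since the genotypes stayed apart.

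In the fragments printed above, this was a shift along the T run of iMet-CAT-1-1. The exact 16 nt fragment had 0.879 to 1.03 reads per read of the exact 15 nt fragment in WT and 1.05 to 1.41 in NS-KO. Of the 3 exact fragments the 16 nt fragment made 45.0% to 48.7% in WT and 48.3% to 54.2% in NS-KO, which overlapped. The exact 17 nt fragment made 3.20% to 4.15% in WT and 4.53% to 7.49% in NS-KO, and the exact 15 nt fragment 47.3% to 51.4% in WT and 38.3% to 46.0% in NS-KO. These are descriptions of the same difference and were not tested again. Exact (Clopper-Pearson) 95% intervals of a library's share spanned 3.95 to 8.41 points for the 16 nt and 1.76 to 4.54 points for the 17 nt fragment. For the 17 nt fragment this is more than the gap between the nearest WT and NS-KO libraries.

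**Figure D4:**
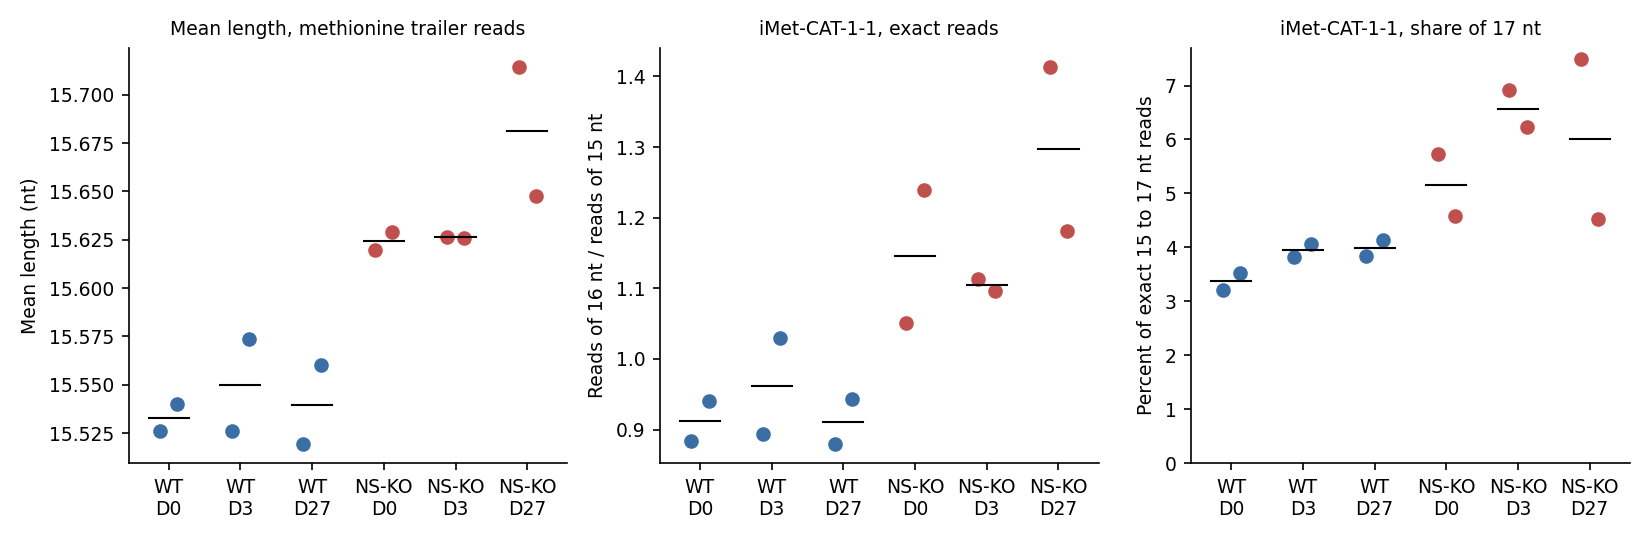
Mean length of the methionine trailer reads (left, nt; the axis does not start at 0), reads of the exact 16 nt per read of the exact 15 nt fragment of iMet-CAT-1-1 (middle; the axis does not start at 0) and percent of its exact 15 to 17 nt reads that were 17 nt (right) in the 6 groups; points are libraries, lines means, WT blue and NS-KO red. The genotypes do not overlap in any panel, and NS-KO D27 replicate 1 is highest in each.

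Other trailers were measured the same way over exact reads. Of 8 other trailer genes, 1 of them mitochondrial, with at least 10 such reads in every library, 5 had a longer mean in NS-KO and 2 a shorter one, and in none were the genotypes apart. Their differences ran from −0.0395 to 1.79 nt with a median of 0.0378 nt, against 0.0872 nt for exact reads of iMet-CAT-1-1 (WT 15.52 to 15.57 nt, NS-KO 15.60 to 15.70 nt). Whether the shift is larger in iMet-CAT-1-1 than in these genes was not tested, and 7 of them had 3475 exact reads or fewer against its 18413.

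Methionine trailers were a large part of all tRF-1 reads, and that part differed between days in NS-KO. The share was 50.6% and 46.3% in WT D0, 43.8% and 47.3% in WT D3, and 50.9% and 54.5% in WT D27. It was 54.9% and 58.3% in NS-KO D0, 24.2% and 31.2% in NS-KO D3, and 36.1% and 43.4% in NS-KO D27. NS-KO was above WT at D0 and below it at D3 and D27, without overlap at each day. Over all days the mean difference was −7.55 points (WT 48.9 ± 3.87, NS-KO 41.3 ± 13.4, SD, n = 6; exact permutation, p = 0.139, 0.208 adjusted over 3 measures). The initiator share of the methionine trailer reads was 99.8% to 100% in every library (difference −0.039 points, p = 0.333 by the same exact test, adjusted 0.333).

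Trailer sums of other nuclear tRNAs were compared in the same fit. Of 22 such sums limma called 13 higher and 0 lower in NS-KO over days, with a median log2 difference of 0.85 against 0.12 for all 282 sums. Of all 282 sums 56 were called higher and 55 lower. With library size alone 20 of the 22 were called higher and 0 lower, where 145 of all sums were higher and 18 lower. With reads outside tRF-5c 9 were higher and 0 lower, where 37 of all sums were higher and 68 lower. Of the single days, D0 had 3 called higher, D3 had 9 and D27 had 2, with 0 lower at each. Among all 282 sums D0 had 6 higher and 21 lower, D3 had 52 and 23, and D27 had 5 and 18. The median of the 22 at D0 was 0.51, where the initiator sum was at 1.14. From NS-KO D0 to D3, 9 were called higher and 0 lower with TMM (median 0.79), where the initiator sum was at −1.23. With library size alone 5 were higher and 0 lower (median −0.04), and with reads outside tRF-5c 5 were higher and 1 lower (median 0.14). Among all 282 sums in this comparison, 50 were higher and 9 lower with TMM. The counts were 27 and 30 with library size alone, and 32 and 32 with reads outside tRF-5c. The difference between the initiator sum and the other trailers was not tested beyond the share of tRF-1 reads above.

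Mismatches to the gene lay mostly at the last base of the read. In iMet-CAT-1-1, 12 sequences with 4834 reads differed from the gene at their last base only. These reads ended in C (2775), A (1653) or G (390) in place of the gene's base, and the 16 others were the A18T fragment. Their share was 15.6% to 20.2% of the gene's trailer reads in WT, 16.1% and 16.5% in NS-KO D0, 22.7% and 20.6% in NS-KO D3, and 27.1% and 19.99% in NS-KO D27. A as the last base took 4.88% to 6.61% in WT, 4.42% and 3.86% in NS-KO D0, 10.3% and 10.1% in NS-KO D3, and 8.68% and 10.2% in NS-KO D27. NS-KO D3 and D27 lay above all WT libraries and NS-KO D0 below them. C as the last base took 9.51% to 12.6% in WT, 10.8% and 11.9% in NS-KO D0, 9.92% and 9.41% in NS-KO D3, and 9.14% and 8.10% in NS-KO D27. For C, NS-KO D27 lay below all WT libraries, and NS-KO D0 and D3 overlapped with them. These shares were chosen for description after their values were seen and have no test.

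NS-KO D3 and D27 were also above WT in the other tRF-1 reads, pooled over all genes. A as a differing last base took 4.84% to 7.25% of them in WT, 4.90% and 5.08% in NS-KO D0, 10.5% and 8.94% in NS-KO D3, and 8.89% and 10.1% in NS-KO D27. In these reads NS-KO D0 lay within the range of WT, and C took 7.56% to 10.1% in WT and 8.20% to 9.60% in NS-KO. G was at 0.614% to 3.27% of the iMet-CAT-1-1 reads except in NS-KO D27 replicate 1, where it was 9.14%, and that library was also highest in the other tRF-1 reads, at 6.04%. Whether such bases were added in the cell or arose in library preparation or sequencing cannot be told apart in these files.

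**Figure D5:**
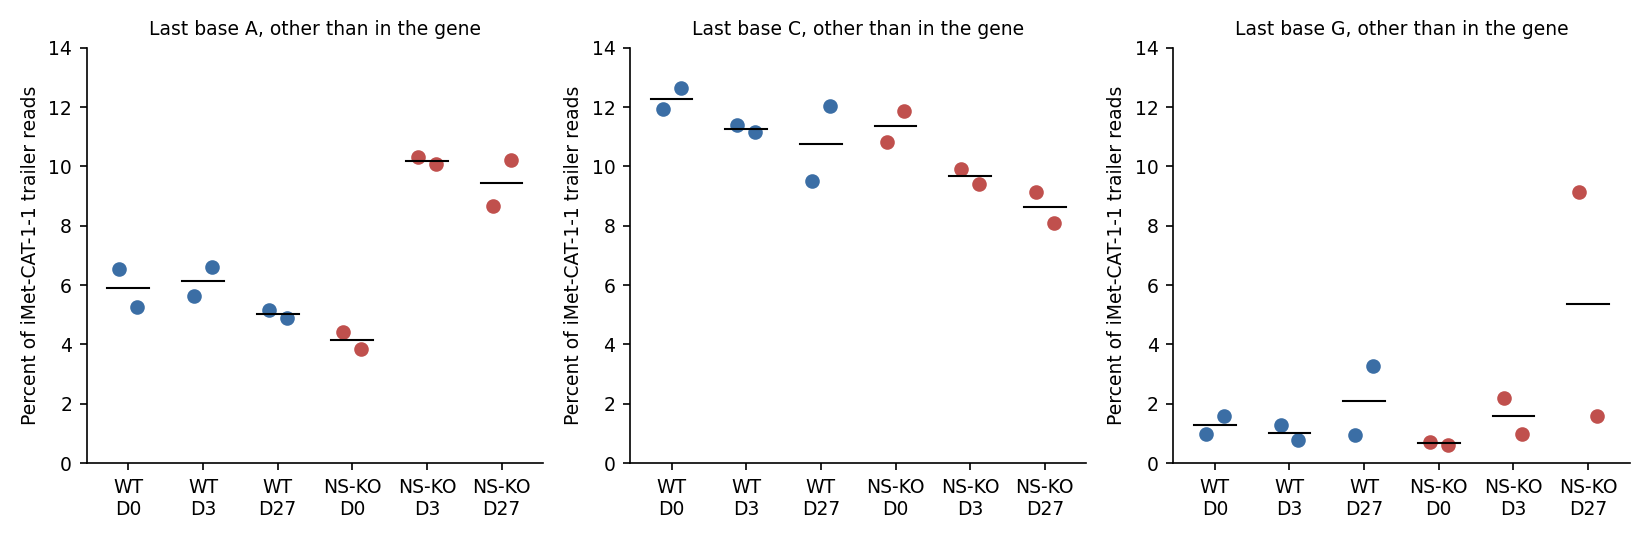
Percent of iMet-CAT-1-1 trailer reads whose last base differs from the gene and is A (left), C (middle) or G (right) in the 6 groups; points are libraries, lines means, WT blue and NS-KO red. NS-KO D3 and D27 stand at 8.68% to 10.3% for A against 4.88% to 6.61% in WT, NS-KO D27 is lowest for C (8.10% and 9.14%), and NS-KO D27 replicate 1 stands alone for G at 9.14%.

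Other fragments of the methionine tRNAs did not share one direction with the trailers. The class Other of Met-CAT (8891 reads outside the named subtypes) was lower in NS-KO over days by a log2 difference of −0.73 ± 0.18 (limma adjusted p = 0.0065) and at D3 by −1.08 ± 0.30 (adjusted p = 0.018). Its reads were 943, 548, 1407, 1443, 804 and 722 in WT and 430, 281, 928, 642, 357 and 386 in NS-KO, in the order D0, D3 and D27. Over days it was called lower with reads outside tRF-5c (−0.93, adjusted p = 0.0018), and with library size alone its sign turned (0.15, adjusted p = 0.66). At D3 it was lower by −1.90 (adjusted p = 5.7e-04) and −1.30 (adjusted p = 0.052) on these scalings.

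The class Other of iMet-CAT (4644 reads) was at 0.55 ± 0.21 over days (adjusted p = 0.051), which was called with library size alone (1.43, adjusted p = 2.4e-05) and not with reads outside tRF-5c (0.35, adjusted p = 0.22). tRF-5c of iMet-CAT, a 5′ fragment of the mature tRNA, had 15 and 15 reads in WT D0, 5 and 18 in WT D3, 29 and 38 in WT D27, 5 and 1 in NS-KO D0, 35 and 24 in NS-KO D3, and 4 and 14 in NS-KO D27. It rose from NS-KO D0 to D3 by 2.30 ± 0.58 (adjusted p = 0.014), with 1.77 (adjusted p = 0.052) at library size alone and 1.74 (adjusted p = 0.032) with reads outside tRF-5c. The initiator trailer fell in the same comparison. tRF-3a and tRF-3b of iMet-CAT, 3′ fragments with 31 and 90 reads, were at 0.13 ± 0.27 (adjusted p = 0.72) and 0.61 ± 0.41 (adjusted p = 0.25) over days. Both sums passed the filter through NS-KO libraries alone, with at most 19.2 CPM (tRF-3a) and 51.7 CPM (tRF-3b) in WT. Their values between genotypes are therefore a description.

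By Pearson's r of log2 CPM with TMM factors over the 12 libraries, the sums most like the initiator trailer were tRF-5c of the mitochondrial Pro-TGG (r = 0.907), tRF-1 of Arg-ACG (0.812), tRF-5a of Lys-TTT (0.811), tRF-3b of Gly-CCC (0.8001) and the class Other shared by Leu-AAG, Leu-CAG and Leu-TAG (0.793). These were the top 5 of 281 sums. The points share their libraries, depths and scaling factors, and the values are a description.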

How the data were processed

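RNA from mouse livers was pretreated to remove charged amino acids, cyclic phosphates and m1A and m3C marks and to phosphorylate 5′ ends, and RNA of 14 to 40 nt was sequenced. Per the labels and the methods the authors used FastQC, cutadapt and Bowtie (versions not given in the sources used here), aligned to mature tRNAs first and to precursors next with 1 mismatch, and used edgeR. The authors deposited, for each library, the number of reads of every distinct sequence (a count per sequence, held in a table of the alignments); all 12 columns of the series table equalled the library files. The deposited table prints each precursor with 40 nt of flank. Genome build was read from the match to RefSeq.

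Reads per sequence were summed by subtype and isodecoder, by subtype and listed genes, or kept single, and tested with limma 3.58.1 (R 4.3.3; trend, prior count 2, Benjamini-Hochberg over the whole table) on log2 CPM with TMM factors computed here from all fragments reaching 20 CPM. Sums needed 10 reads per median library in 2 libraries. Shares and lengths were tested by exact permutation within days. Python 3.11.15, numpy 2.4.6, pandas 2.3.3, scipy 1.17.1 and matplotlib 3.10.9 were used. The fits were run on simulated data with large changes and a fixed spread. Single fragments in it had passed the stricter filter on sums, so the sparse fragments tested here were not covered. The study calls the libraries of a group biological replicates, and p-values measure the spread between them. With library size alone, the fit by subtype and isodecoder pooled that spread over all sums. Within all 6 groups the 2 libraries differed beyond sampling noise (chi-square per degree of freedom 3.90 to 29.2). Alternatives were the scaling, voom weights, a prior count of 0.5, the filters, exact matches, a replicate block and leaving out each library. Named were both isodecoder sums, genes with at least 10 reads, their most-read fragments, the 10 most-read members, the other sums of these tRNAs, all other trailer sums as counts, the 5 sums most like the initiator trailer, and members among the synthesised fragments. The members and lists were chosen with earlier results of these data known. Intervals cover counting error only, since no molecular identifiers are described.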

Additional observations from a re-analysis of the deposited data

Results flagged for a closer look

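tRF-5c of iMet-CAT was the one methionine sum whose change from D0 to D3 passed the test of a difference between genotypes: it was 2.85 (log2, SE 0.82) higher in NS-KO than in WT (limma adjusted p = 0.040), on 203 reads in all. With library size alone the difference was 1.72 (adjusted p = 0.16), and with reads outside tRF-5c 2.23 (adjusted p = 0.074).

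In 4 measures every NS-KO library lay on one side of WT at D0 and on the other side at a later day; these differences between days were not tested. NS-KO minus WT in the methionine share of tRF-1 reads was 8.16 points at D0, −17.8 at D3 and −13.0 at D27, so that it differed from D0 by −26.0 and −21.1 points. For A as a differing last base of iMet-CAT-1-1 it was −1.77 points at D0, 4.07 at D3 and 4.44 at D27, a difference from D0 of 5.84 and 6.21 points. For all differing last bases it went from −3.23 points at D0 to 3.20 at D3, by 6.43 points. For the share of exact reads it went from 4.01 points at D0 to −2.86 at D3, by −6.87 points.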

How the results depend on the processing

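The longer mean length in NS-KO kept its direction and passed the exact test in all 13 alternatives. In the 12 that left out a library it could not fail, because every NS-KO library lay above every WT library. None of the alternatives added the 856 reads of 14 nt from base 1 of iMet-CAT-1-1 in the class Other, so their effect on the length is not known. Replicate numbers did not pair the samples: over 15 pairs of groups the correlation of deviations ran from −0.167 to 0.286, above 0.1 in 1. With the number as a replicate block the initiator sum was at 0.16 over days, and the block changed no call of the sums (NS-KO D3 against NS-KO D0 −1.23, adjusted p = 0.041) and no count of members called (1 over days and 1 at D3).

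For the initiator sum, library size alone gave 1.04 over days, 2.54 at D0, 1.24 at D27 and −3.21 for the D3 change between genotypes, with a spread pooled over all sums (1692 degrees of freedom). Reads outside tRF-5c gave −0.042 over days, −1.27 at D3, 0.031 at D27 and −2.38 for that change. Exact matches gave −0.033 over days and −1.64 for the change. The value over days was −0.014, −0.018 and −0.047 without WT D0, WT D3 or WT D27 replicate 2, and ran from −0.047 to 0.22 over all libraries left out. WT D27 against WT D0 ran from −0.36 to 0.14, and was above 0 (0.037 and 0.14) without WT D0 replicate 1 or WT D27 replicate 2. NS-KO D3 against NS-KO D0 was −1.23 without the filter (adjusted p = 0.057) and −1.39 to −1.06 when a library was left out. The D3 change ran from −1.92 to −1.42, called at −1.92 to −1.77. The causes were not tested.

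For iMet-CAT-1-1 alone, reads outside tRF-5c gave −0.046 over days and 0.030 at D27, library size 1.24 at D27, and the value over days ran from −0.051 to 0.21, at −0.051 to −0.018 without the same 3 WT libraries. iMet-CAT-1-7 at D27 was 0.49 with library size, 0.050 without WT D27 replicate 1 and 0.83 without NS-KO D27 replicate 2, in a range of −1.16 to 0.83.

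Members called over days were 6 with library size, 10 with voom and 1 to 11 without a library (11 without NS-KO D0 replicate 1, 6 without NS-KO D3 replicate 1 or 2, 7 without NS-KO D27 replicate 2). At D0 they were 1 with library size, 9 with voom, 4 with the filter of 10 reads, 1 with reads outside tRF-5c and 0 to 16 without a library (16, 8, 7 and 4 without NS-KO D0 replicate 1, NS-KO D3 replicates 1 and 2, and NS-KO D27 replicate 2). At D3 they were 0 with library size, 2 with voom, 0 with the filter, 3 with reads outside tRF-5c, and 0 to 3 without a library (0 without WT D3 replicate 1 or 2, 3 without NS-KO D3 replicate 2, 2 without NS-KO D27 replicate 2). At D27 they were 1 with voom, 1 with the filter and 0 to 4 without a library (1, 2 and 4 without NS-KO D0 replicate 1, NS-KO D3 replicate 1 and NS-KO D27 replicate 2). Calls among all fragments can move with the setting as well. Voom called more of all fragments than the main fit did, wherever both are given above. For the other settings the calls among all fragments are not given. Whether the members moved more than all fragments was not tested, so these counts only describe the settings. Reads outside tRF-5c was added for single fragments, and the other readouts and trailers under each scaling, the lengths in other trailers and the last-base shares were added, after seeing the data. With 2 libraries a group, and as few as 46937 reads in a library, genes with under 100 reads in all were limited by depth.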
